A study of Mus musculus with 18 samples.

Results

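The hormone and secretory granule genes of thyroid C cells and of the neighbouring parathyroid were examined in sorted mouse thyroid cells. They are the calcitonin gene Calca, the granins Chga, Chgb and Scg2, the prohormone convertases Pcsk1 and Pcsk2, and the parathyroid genes Pth, Gcm2 and Casr. A member was any probe whose gene name on the array equals one of these 9 symbols. Probes were taken by name alone, but the symbols themselves were chosen with earlier results of these data known. The array carries 27962 gene names. All 9 genes were found, on 13 probes, of which 12 passed the filter of being well above background in the sample channel on at least 3 of the 18 arrays.

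The samples came from thyroids of C57BL/6 mice of both sexes, whose age is not given in the sources used here. The glands had been dissociated with dispase 1 and collagenase, and the cells were kept in culture for 2 days. Sorting followed staining with the DNA dye Hoechst 33342, with and without verapamil, a blocker of the pumps that export the dye. Cells that keep the dye out form the side population, and all other cells form the main population. Each population was collected after partial thyroidectomy, the surgical removal of some of the gland, and without surgery. The groups are the side population after partial thyroidectomy (TSP, 6 arrays), the side population without surgery (CSP, 6), the main population after partial thyroidectomy (TMP, 3) and the main population without surgery (CMP, 3). The design text calls them biological replicates, and the labels do not say how many animals went into a sample. All samples, the unoperated ones included, therefore share digestion, culture and sorting. On each array the sample was labelled with Cy5 and a common RNA pool with Cy3. That pool comes from Swiss Webster mice and holds thymus, spleen, lung, liver, heart, kidney, brain, ovary, testicle and embryo, with no thyroid or parathyroid tissue listed. A value below is a log2 ratio of sample over pool unless an intensity is named. Ratios are compared between groups for one probe at a time, because the pool differs from gene to gene.

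C cells are the neuroendocrine cells of the thyroid and release calcitonin, a hormone that lowers blood calcium, from dense-core granules. The primary transcript of Calca is spliced into 2 messages: one ends in the calcitonin exon and is the main product in C cells, the other skips that exon and encodes the neuropeptide CGRP. Granins help form the granules and are themselves cut into peptides, and the convertases cleave prohormones inside them. Parathyroid chief cells lie on or within the thyroid. They secrete parathyroid hormone (Pth), depend on the transcription factor Gcm2, and sense blood calcium through the receptor Casr, which C cells also carry.

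Which message a probe reads is taken from the transcript assigned to it, and the sequences were not aligned to exons. The Calca probes lie apart on the minus strand of chromosome 7 (build mm7, per the file headers). Probe A_51_P290826, at chr7:110549383-110549442, is assigned to transcript variant 1, the calcitonin message. Probe A_52_P154101, at chr7:110547755-110547814, is assigned to variant 2, the CGRP message, and it holds the polyadenylation signal AATAAA, printed in capitals. The stretches are bases 1 to 30 of the calcitonin probe and bases 20 to 49 of the CGRP probe, 5′ to 3′.
Calca A_51_P290826: ggcagtcatctggcttcctagtagagcttc
Calca A_52_P154101: tgtgactctgtatccAATAAAcatgacagc

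Pcsk1 is shown because its probes read different places of one transcript and gave values of different size. On the plus strand of chromosome 13, A_52_P164524 is listed at chr13:72112605-72119261. A probe of 60 bases that spans 6657 bases of the genome crosses an exon junction. A_52_P500979 lies further along at chr13:72145584-72145643. The first 30 bases of each are given.
Pcsk1 A_52_P164524: taacgataatgatcatgatccatttccccg
Pcsk1 A_52_P500979: tgctgcaagctctcatggacatcctaaatg

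Promoter windows of RefSeq (GRCm38.p6, 250 bases before to 50 after the gene start) were found for all 9 genes. They were searched on both strands for TGACGT, the core of the cAMP response element, and for TGACGTCA, the full palindrome, which contains the core on both strands. The core was found in 4 of the 9 windows (Chga, Chgb, Scg2 and Pcsk1), against 2468 of 32851 windows, or 7.51%, over all genes. The palindrome was found in 3 of 9 (Chgb, Scg2 and Pcsk1), against 588 windows, or 1.79%. The first match began 44 bases before the start in Chga, 72 in Chgb, 68 in Scg2 and 78 in Pcsk1. Counted on both strands, the Pcsk1 window held 3 matches of the core, and not all of them are printed. The windows of Calca, Pcsk2, Pth, Gcm2 and Casr held no such letters. Pearson's r with Chgb was taken over 10 side population arrays (CSP 1 to CSP 6 and TSP 3 to TSP 6). Among genes whose window holds the core it was 0.24 for Chga, 0.87 for Scg2, and 0.49 and 0.86 for the Pcsk1 probes. Among those without the core it was 0.75 and 0.94 for the Calca probes, and 0.82 and 0.97 for Pcsk2. For Pth, Gcm2 and Casr, also without the core, it was 0.21, 0.07 and 0.16. A link between these letters and r was not tested. The stretches around the first match of each window are printed to show the letters found, with the match in capitals. They are chr12:102554873-102554926 (plus) for Chga, chr2:132781546-132781599 (plus) for Chgb, chr1:79440065-79440118 (minus) for Scg2 and chr13:75089755-75089808 (plus) for Pcsk1.
Chga: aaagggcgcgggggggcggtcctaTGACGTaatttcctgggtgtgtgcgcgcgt
Chgb: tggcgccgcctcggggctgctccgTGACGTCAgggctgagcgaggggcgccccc
Scg2: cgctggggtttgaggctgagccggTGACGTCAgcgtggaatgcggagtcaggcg
Pcsk1: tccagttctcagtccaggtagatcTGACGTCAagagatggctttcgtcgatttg

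On an array, 38.8% to 72% of the spots passed the background test in Cy5, and precision is limited by how many arrays each group has. TSP 1 and TSP 2 stood apart from their group. Over 29143 probes their median correlation was 0.94 with main population arrays and 0.69 with the other side population arrays, which reached 0.85 among themselves. Fitted TSP differences of members on the ratio are therefore printed with and without both, apart from the fits with slide as a block. TSP minus CSP and the difference of differences are printed for some members only. The arrays sat on 5 slides, and CSP and CMP share only slide 4, TSP and TMP only slide 5. The 10 follicular cell genes, which mark the labelled tissue, averaged log2 ratios of 2.52 to 3.12 on the CMP arrays, so markers of the labelled tissue were detected. C cell markers were detected as described next; Scgn and Ret, also expected of C cells, did not pass the filter.

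The CGRP probe of Calca, the Scg2 probe and a probe each of Pcsk1 and Pcsk2 were called higher in CSP than in CMP. The parathyroid genes and Chga were not called in either direction. Nor were the tested Chgb probe, the calcitonin probe and the other probes of Pcsk1 and Pcsk2 (limma adjusted p 0.0883 to 0.108). Scg2 and Pcsk2 A_51_P134045 lay just under 0.05 (limma adjusted p = 0.0498 each). They were called in 13 of 31 and 11 of 28 other settings run on the ratio. Among the 4 called probes the largest fitted differences were 22.5-fold for the Calca CGRP probe and 14.2-fold for Pcsk1, with CMP well above background on 2 and 1 of its 3 arrays. In CSP minus CMP, 4 of the 12 member probes were called higher and none lower (limma, adjusted p under 0.05). Over all 29759 probes, 6.59% were called higher and 6.64% lower. Without TSP 1 and TSP 2, which enter only through the shared spread, the same 4 member probes were called, against 8.93% of all probes called higher. All 6 CSP arrays lay above all 3 CMP arrays for 7 of the 12 probes, against 10% of all probes. Log2 differences were above 0 for 11 of the 12, against 53.1% of all probes, and their median was 1.76, against 0.04. In bulk samples, more cells of a type and more RNA per cell cannot be told apart.

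The calcitonin probe of Calca (A_51_P290826) was well above background on all 18 arrays. Its log2 ratio had a lowest, median and highest value of 1.50, 4.12 and 4.56 in TSP and of 4.72, 5.16 and 5.68 in CSP. Array by array, it was 3.83, 4.37 and 3.95 on TMP 1 to TMP 3, and 3.43, 4.47 and 3.92 on CMP 1 to CMP 3. All CSP arrays lay above every other array, and TSP overlapped both main population groups. Group means were 3.71 ± 1.13 in TSP, 5.17 ± 0.40 in CSP (SD, n = 6 each), 4.05 ± 0.28 in TMP and 3.94 ± 0.52 in CMP (SD, n = 3 each). In order, CSP was highest, and TMP, CMP and TSP followed with differences within their spread. CSP minus CMP was 1.23 (SE 0.48, limma adjusted p = 0.101), which did not pass.

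On this probe the Cy3 channel moved with Cy5, so the ratio varied less than the Cy5 signal did. The probe is 1 of 21 on the array with a net Cy5 intensity over 50000 on some array and a net Cy3 intensity under 700 on some array. Over the 18 arrays log2 Cy5 and Cy3 had a Pearson r above 0 on all 21 of them (median 0.91), 0.98 on the calcitonin probe and 0.61, the lowest, on the CGRP probe. Net Cy5 intensity, the mean signal less local background, ran from 102 on TSP 3 to 705000 on TSP 6, where the spot was saturated. It was 38720 to 492700 on the CSP arrays and 2330 to 4751 on the CMP arrays. The Cy3 intensity of the same spot, which reads the common pool, ran from 72.3 on TSP 3 to 11430 on TSP 6, a ratio of 158. It was 1666 to 5557 on the CSP arrays and 256 to 408 on the CMP arrays. The Cy3 channel of the CGRP probe varied by a ratio of 2.08 over the 18 arrays, and those of Chga, Chgb, Scg2, Pcsk2 and Pcsk1 A_52_P500979 by 1.92 to 2.22. The Pth probe, also very bright in Cy5, had a Cy3 ratio of 7.19. The part of this Cy3 change in the log2 ratios was not tested. In the Cy5 channel alone, an analysis chosen after seeing these values, CSP minus CMP for the calcitonin probe was 5.39 on the log2 scale (SE 1.59, limma adjusted p = 0.0322) and was called. That channel called 3 member probes higher, the others being Calca A_52_P154101 and Pcsk1 A_52_P500979, against 6.19% of all probes. Without TSP 1 and TSP 2 it called 6, adding Scg2 and both Pcsk2 probes, against 8.87%.

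**Figure D1:**
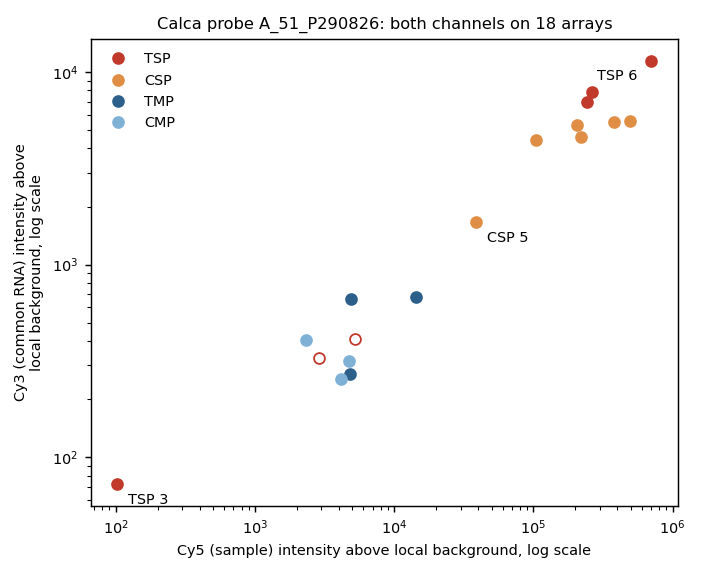
Net Cy5 intensity (sample, x axis, log scale) against net Cy3 intensity (common pool, y axis, log scale) of the calcitonin probe of Calca on each of the 18 arrays, coloured by group, with open circles for TSP 1 and TSP 2. Cy3 runs from 72.3 on TSP 3 to 11430 on TSP 6 along with Cy5, and the CSP arrays lie above the TMP and CMP arrays in both channels.

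The CGRP probe of Calca (A_52_P154101) had log2 ratios of 3.64, 4.48, 3.38, 5.52, 1.93 and 6.19 on CSP 1 to CSP 6. It had 0.05, 0.18 and −1.14 on the CMP arrays, where it was well above background on 2 of 3. The groups did not overlap, and the lowest CSP array, CSP 5, was still well above the highest CMP array. CSP averaged 4.19 ± 1.54 (SD, n = 6) and CMP −0.30 ± 0.73 (SD, n = 3), a difference of 4.49 (SE 1.19, limma adjusted p = 0.0194) or 22.5-fold. Over the other processing settings this log2 difference ran from 3.10 with the replicate block to 5.77 with slide as a fixed block. In TSP the values were −0.49, 0.25, −1.25, 4.87, 3.21 and 4.95 on TSP 1 to TSP 6, against 0.26, 0.16 and 0.15 in TMP. TSP 4, TSP 5 and TSP 6 were as high as CSP, while TSP 1, TSP 2 and TSP 3 lay with the main population. TSP minus TMP was 1.73 (SE 1.19, limma adjusted p = 0.614) with all arrays and 2.75 (SE 1.16, adjusted p = 0.142) without TSP 1 and TSP 2. The order of group means was CSP, TSP (1.92 ± 2.76, SD, n = 6), TMP (0.19 ± 0.06, SD, n = 3) and CMP, with the last 3 within the spread of TSP. Leaving out any CMP array ended the CSP call, with adjusted p between 0.0655 and 0.0739.

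**Figure D2:**
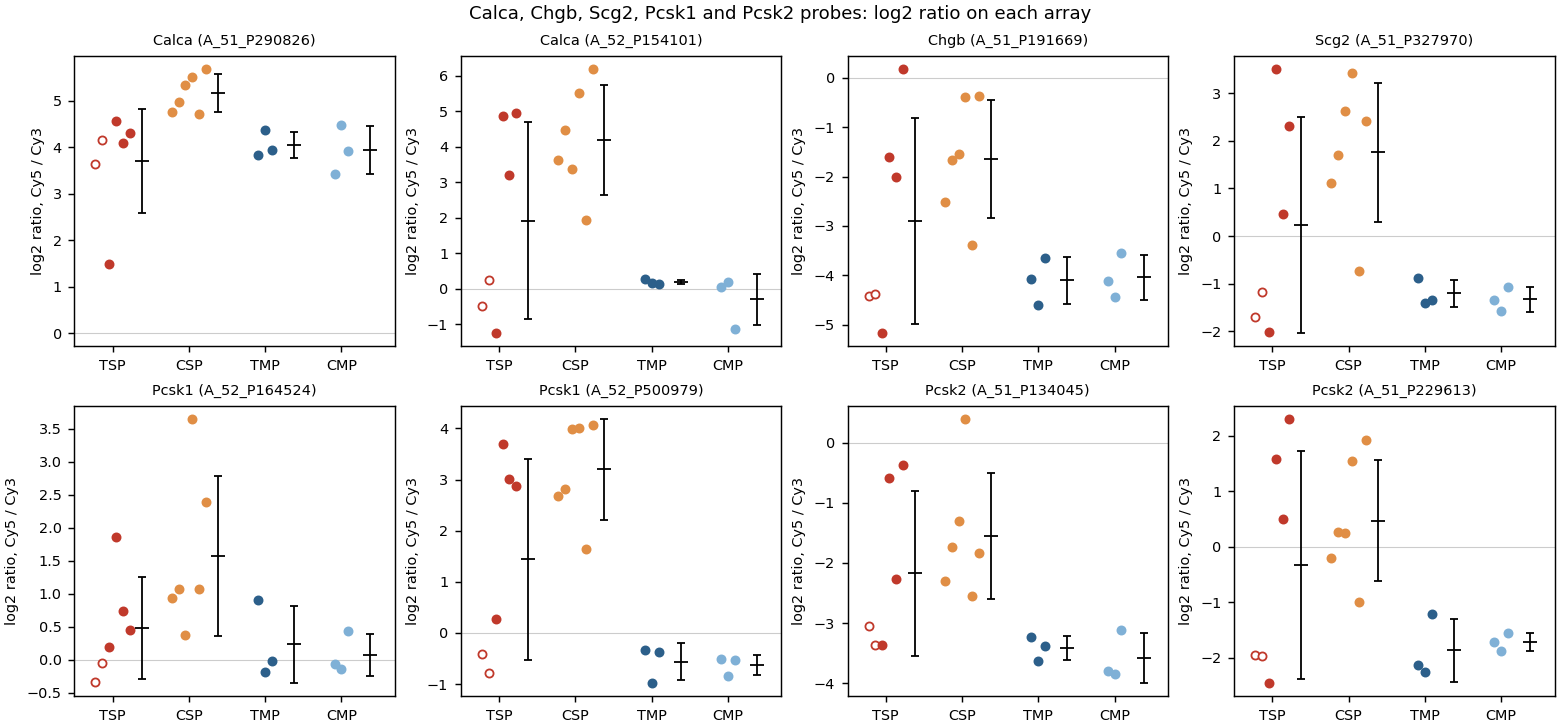
Log2 ratio (y axis, Cy5 over Cy3) of the 8 probes of Calca, Chgb, Scg2, Pcsk1 and Pcsk2 on each array, by group; open circles are TSP 1 and TSP 2, and the black mark and bar are the group mean and SD. CSP lies above CMP without overlap on 7 of the 8 probes, and TSP holds values as high as CSP and as low as the main population.

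Scg2 encodes secretogranin II, a granin that is cut to secretoneurin. It was read at chr1:79656183-79656242 (minus). Its log2 ratios were 1.12, 1.71, 2.62, 3.43, −0.74 and 2.42 on CSP 1 to CSP 6, against −1.35, −1.58 and −1.07 on the CMP arrays. No CSP array fell within the CMP range, although CSP 5 came close. CSP averaged 1.76 ± 1.46 (SD, n = 6) and CMP −1.33 ± 0.26 (SD, n = 3). The difference was 3.09 (SE 1.01, limma adjusted p = 0.0498) or 8.51-fold, just inside the threshold. It was no longer called when any one of CSP 1 to CSP 4, CSP 6, the CMP arrays, TSP 5 or the TMP arrays was left out (adjusted p 0.0572 to 0.153). In TSP, Scg2 was −1.70, −1.18, −2.01, 3.50, 0.47 and 2.32 on TSP 1 to TSP 6, against −0.87, −1.41 and −1.34 in TMP. Again TSP 4 to TSP 6 stood above TMP and TSP 1 to TSP 3 did not. TSP minus TMP was 1.44 (limma adjusted p = 0.627) with all arrays and 2.27 (adjusted p = 0.163) without TSP 1 and TSP 2. The means ranked CSP, TSP (0.23 ± 2.27, SD, n = 6), TMP (−1.20 ± 0.29, SD, n = 3) and CMP, and TSP overlapped all others.

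Chgb encodes chromogranin B and was read by probe A_51_P191669 at chr2:132535820-132535879 (plus), which is printed in 10 spots per array. The SD between spots of an array was 0.07 to 0.22 log2 units, far below the spread between arrays. The other Chgb probe, A_52_P652560, was well above background on no array in either channel and was not tested. Log2 ratios were −2.51, −1.67, −1.54, −0.39, −3.40 and −0.36 on CSP 1 to CSP 6, against −4.12, −4.44 and −3.54 in CMP. The groups did not overlap, with CSP 5 next to the CMP range. CSP minus CMP was 2.39 (SE 0.91, limma adjusted p = 0.0883) and was not called. TSP had −4.42, −4.39, −5.17, −1.60, −2.00 and 0.17 on TSP 1 to TSP 6, against −4.07, −4.60 and −3.65 in TMP. TSP 6 was the highest of all arrays and TSP 3 the lowest. TSP minus TMP was 1.20 (limma adjusted p = 0.665) with all arrays and 1.96 (adjusted p = 0.186) without TSP 1 and TSP 2.

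Pcsk1, the convertase PC1/3 that makes the early cuts in many prohormones, had the lowest adjusted p of the members. Its probe A_52_P500979 had log2 ratios of 2.68, 2.81, 4.00, 4.01, 1.65 and 4.06 on CSP 1 to CSP 6, against −0.50, −0.84 and −0.53 on the CMP arrays. Every CSP array was well above background, and 1 of the 3 CMP arrays was. The groups were separated by more than the range of either main population group. CSP averaged 3.20 ± 0.99 (SD, n = 6) and CMP −0.63 ± 0.19 (SD, n = 3), a difference of 3.83 (SE 0.83, limma adjusted p = 0.0100) or 14.2-fold. Over the other processing settings this log2 difference ran from 2.93 with the replicate block to 6.01 with the authors' deposited ratios. The call was lost without CMP 2 (limma adjusted p = 0.0567), where no probe of the whole array was called.

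In TSP this probe had −0.41, −0.79, 0.28, 3.70, 3.02 and 2.87 on TSP 1 to TSP 6, against −0.33, −0.97 and −0.37 in TMP. TSP 3 to TSP 6 lay above all TMP arrays, TSP 3 by the least. With all arrays TSP minus TMP was 2.00 (SE 0.83, limma adjusted p = 0.336) and was not called. Without TSP 1 and TSP 2 it was 3.02 (SE 0.66, limma adjusted p = 0.00476) or 8.14-fold and was called, with TMP well above background on 1 of its 3 arrays. The means ranked CSP, TSP (1.44 ± 1.97, SD, n = 6), TMP (−0.56 ± 0.36, SD, n = 3) and CMP. The other probe, A_52_P164524, was above background on 3 of 6 CSP arrays and on no CMP array. Its Cy5 level averaged 7.95 in CSP and 6.87 in CMP on the log2 scale, and CMP 3 (7.55) lay above CSP 1 to CSP 3 (7.03 to 7.29). No fold is given, since no CMP array and only 3 of 6 CSP arrays were above background. The CSP minus CMP ratio was not called (limma adjusted p = 0.0887). For this probe TSP minus TMP was 0.24 (limma adjusted p = 0.922) with all arrays and 0.58 (adjusted p = 0.638) without TSP 1 and TSP 2.

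Pcsk2, the convertase PC2 that makes later cuts, was read by a pair of probes on chromosome 2 (plus strand). A_51_P134045, at chr2:143556666-143556725, had log2 ratios of −2.30, −1.73, −1.31, 0.40, −2.54 and −1.84 on CSP 1 to CSP 6, against −3.79, −3.85 and −3.11 in CMP. It was above background on 4 of 6 CSP arrays and 1 of 3 CMP arrays. The groups did not overlap, and the difference was 2.03 (SE 0.66, limma adjusted p = 0.0498) or 4.07-fold. In TSP this probe had −3.05, −3.37, −3.37, −0.59, −2.27 and −0.37 on TSP 1 to TSP 6, against −3.24, −3.63 and −3.37 in TMP. TSP minus TMP was 1.24 (limma adjusted p = 0.473) with all arrays and 1.76 (adjusted p = 0.0978) without TSP 1 and TSP 2. As for Scg2, the CSP call was lost on leaving out any one of CSP 1 to CSP 4, CSP 6, the CMP arrays, TSP 5 or the TMP arrays (adjusted p 0.0537 to 0.163). A_51_P229613, at chr2:143554770-143554829, was above background on all 18 arrays. It had −0.20, 0.27, 0.25, 1.55, −0.99 and 1.92 on CSP 1 to CSP 6, against −1.72, −1.88 and −1.56 in CMP. Here too the groups were apart, but the difference of 2.18 (SE 0.88, limma adjusted p = 0.108) did not pass. On this probe TSP had −1.94, −1.97, −2.45, 1.57, 0.50 and 2.30 on TSP 1 to TSP 6, against −2.13, −2.25 and −1.22 in TMP. TSP 4 to TSP 6 stood clear of TMP and TSP 1 to TSP 3 lay within or below it. TSP minus TMP was 1.53 (limma adjusted p = 0.511) with all arrays and 2.35 (adjusted p = 0.0790) without TSP 1 and TSP 2.

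Chga encodes chromogranin A, the granin commonly used to mark neuroendocrine cells, which parathyroid chief cells also make. It was read at chr12:100060167-100060226 (plus) and was above background on all arrays. Its log2 ratio had a lowest, median and highest value of 3.05, 3.68 and 4.16 in TSP and of 0.82, 3.41 and 3.99 in CSP. Array by array, it was 3.46, 3.99 and 3.53 on TMP 1 to TMP 3, and 3.77, 2.98 and 2.86 on CMP 1 to CMP 3. CSP 1 and CSP 2 were the lowest of all arrays, and the other arrays overlapped across groups. CSP minus CMP was −0.26 (SE 0.50, limma adjusted p = 0.790), and TSP minus TMP was 0.00 (SE 0.50, adjusted p = 0.999) with all arrays and −0.06 (adjusted p = 0.968) without TSP 1 and TSP 2.

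Pth was read at chr7:109301756-109301815 (minus) and was above background on all arrays. Its log2 ratio had a lowest, median and highest value of 5.21, 6.10 and 7.04 in TSP and of 5.20, 6.54 and 6.86 in CSP. Array by array, it was 6.14, 6.68 and 5.69 on TMP 1 to TMP 3, and 5.86, 6.51 and 5.79 on CMP 1 to CMP 3. All 4 groups overlapped. The means were 6.11 ± 0.62 in TSP, 6.26 ± 0.69 in CSP (SD, n = 6 each), 6.17 ± 0.50 in TMP and 6.05 ± 0.40 in CMP (SD, n = 3 each). CSP minus CMP was 0.21 (SE 0.40, limma adjusted p = 0.786) and TSP minus TMP −0.06 (SE 0.40, adjusted p = 0.974) with all arrays and −0.18 (adjusted p = 0.859) without TSP 1 and TSP 2.

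Gcm2, at chr13:40541632-40541689 (minus), was above background on 14 arrays. Its lowest, median and highest log2 ratios were 0.30, 1.11 and 2.81 in TSP and −0.15, 0.72 and 3.80 in CSP, against 0.88 to 1.62 in TMP and 0.54 to 1.15 in CMP. CSP 4 and TSP 4 held the highest values, and the groups overlapped. CSP minus CMP was 0.35 (SE 0.64, limma adjusted p = 0.777) and TSP minus TMP 0.08 (SE 0.64, adjusted p = 0.979) with all arrays and 0.29 (adjusted p = 0.862) without TSP 1 and TSP 2. Casr, at chr16:36202922-36202981 (minus), was above background on 9 arrays and lay between −0.40 and 0.81 on all 18. CSP minus CMP was 0.08 (SE 0.22, limma adjusted p = 0.852) and TSP minus TMP −0.13 (SE 0.22, adjusted p = 0.884) with all arrays and −0.08 (adjusted p = 0.891) without TSP 1 and TSP 2, and no group stood apart.

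**Figure D3:**
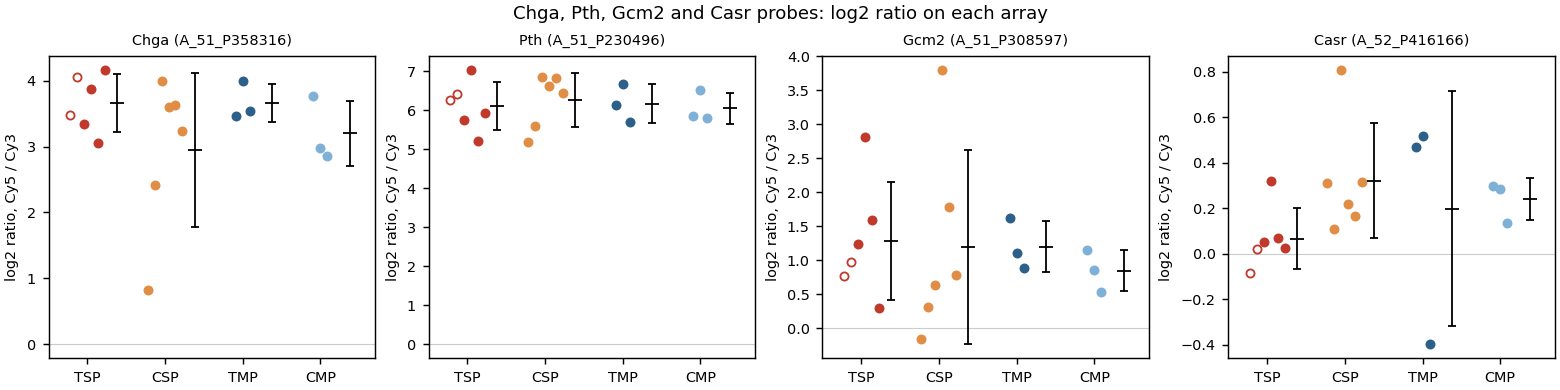
Log2 ratio (y axis, Cy5 over Cy3) of Chga, Pth, Gcm2 and Casr on each array, by group; open circles are TSP 1 and TSP 2, and the black mark and bar are the group mean and SD. All 4 genes overlap between side and main population, and CSP 1 and CSP 2 are the lowest arrays for Chga.

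In TSP minus TMP no member probe was called with all arrays, and neither was any of the 29759 probes (0% called by limma, with 3705 at an unadjusted p under 0.05, 1 of them a member probe). Without TSP 1 and TSP 2, the fit called 6.33% of all probes higher and 6.34% lower, and Pcsk1 A_52_P500979 was the 1 member probe called. It was also the 1 probe of 12 for which TSP 3 to TSP 6 all lay above TMP, against 11.3% of all probes. In the Cy5 channel without TSP 1 and TSP 2 it was again the 1 member probe called (3.43, SE 0.81, limma adjusted p = 0.00699), against 7.04% of all probes called higher. The calcitonin probe of Calca had a TSP minus TMP difference of −0.34 with all arrays and −0.44 without TSP 1 and TSP 2 on the ratio, and of 1.26 and 2.45 in Cy5, none of them called. The Cy5 values include the saturated spot of TSP 6, whose level is only a lower limit.

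**Figure D4:**
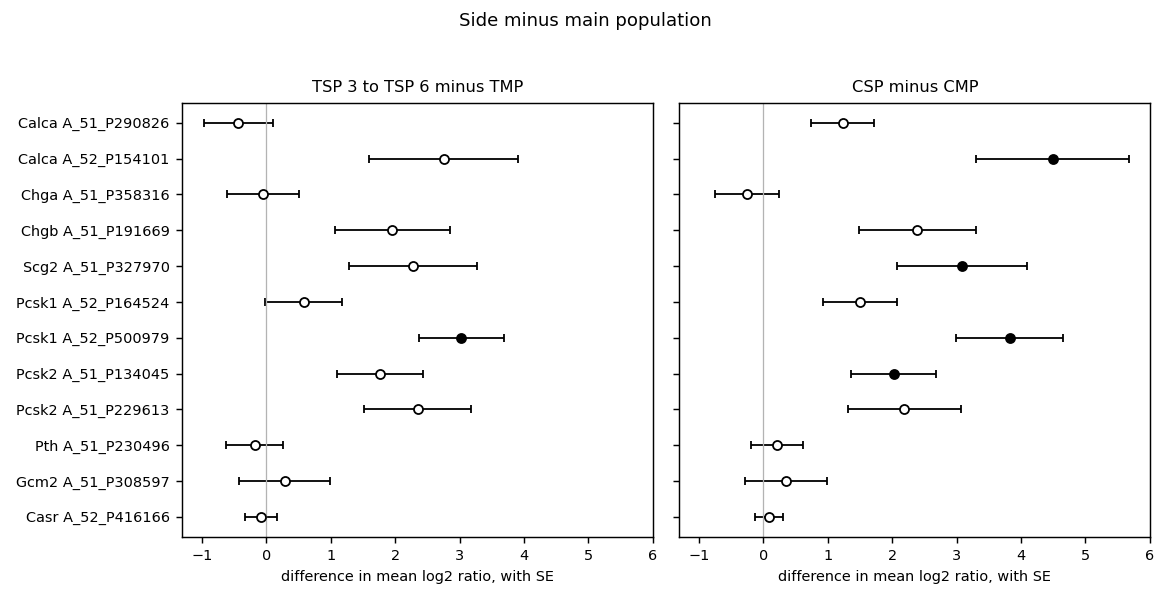
Log2 difference of side minus main population (x axis, dot with SE) for each of the 12 probes, for TSP 3 to TSP 6 minus TMP (left panel) and CSP minus CMP (right panel); filled dots have a limma adjusted p under 0.05. One probe is filled on the left, Pcsk1 A_52_P500979, and 4 are filled on the right.

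The slide touches these comparisons. On slide 4, which held 2 CSP arrays and 1 CMP array, CSP minus CMP was 3.88 for the Calca CGRP probe, 2.41 for Scg2, 2.56 for Chgb, 3.70 for Pcsk1 A_52_P500979, and 1.65 and 2.34 for the Pcsk2 probes. On slide 5, which held 2 TSP arrays and 1 TMP array, TSP minus TMP was 3.93 for the Calca CGRP probe, 2.73 for Scg2, 2.74 for Chgb and 3.32 for Pcsk1 A_52_P500979. Those TSP arrays were TSP 5 and TSP 6, so the low TSP 1 to TSP 3 did not enter. On slides 4 and 5 in turn, the differences were 0.73 and 0.25 for the calcitonin probe and 0.45 and 0.07 for Chga. For Pth they were 0.13 and −0.11, for Gcm2 0.43 and 0.06, and for Casr −0.04 and 0.45. With slide as a fixed block in limma, the 4 calls in CSP minus CMP held and 2 were added, Chgb (3.57, adjusted p = 0.0195) and Pcsk2 A_51_P229613 (3.22, adjusted p = 0.0300). That fit called 14.5% of all probes higher, against 6.59% without the block. With slide as a random block 7 member probes were called, Pcsk1 A_52_P164524 being the further one (1.65, limma adjusted p = 0.0462), against 12.4% of all probes. The calls thus became more frequent over the whole array as well as among the members. In TSP minus TMP neither block called a member probe, against 0.729% of all probes with the fixed and 0.0168% with the random block.

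Partial thyroidectomy gave no called difference in these genes. TSP minus CSP called 0 of 12 member probes and 0% of all probes (limma, smallest adjusted p 0.383, 2756 probes at an unadjusted p under 0.05). For the calcitonin probe of Calca the difference was −1.46 (SE 0.40, adjusted p = 0.416), and −1.56 (adjusted p = 1.00) without TSP 1 and TSP 2. For the CGRP probe it was −2.27 (SE 0.97, adjusted p = 0.510) and −1.25 (SE 0.98, adjusted p = 1.00). For Pcsk1 A_52_P500979 it was −1.76 (SE 0.68, adjusted p = 0.493) and −0.74 (SE 0.56, adjusted p = 1.00). Leaving out TSP 1 and TSP 2 thus brought the ratios of the CGRP and Pcsk1 probes nearer to 0, and that of the calcitonin probe moved little. In Cy5 alone, with TSP 6 saturated, the calcitonin probe also came nearer to 0, with −3.11 (limma adjusted p = 0.568) for all arrays and −1.92 (adjusted p = 0.951) without TSP 1 and TSP 2. For Pth TSP minus CSP was −0.16 (SE 0.33, adjusted p = 0.917) with all arrays and −0.28 (adjusted p = 1.00) without both, and 0.20 (adjusted p = 0.680) with slide as a fixed block. Within slide 1, where TSP 1 and TSP 2 met CSP 1 and CSP 2, TSP minus CSP was −4.18 for the CGRP probe and 2.16 for Chga, and within slide 3 it was −2.64 and −0.19. TSP and CSP share both slides, and blocking on slide ended the count of 0 over the array: 3.67% of all probes were called with the fixed block and 0.759% with the random block, while the members stayed at 0 of 12. Their limma adjusted p fell, to 0.0552 for Pcsk1 A_52_P500979 (−2.22) and 0.0836 for the calcitonin probe (−1.46) with the fixed block. These fits include TSP 1 and TSP 2, the TSP arrays of slide 1, and no blocked fit without them is given. Within slides 1 and 3 in turn, TSP minus CSP was −3.34 and −2.02 for Pcsk1 A_52_P500979. For the calcitonin probe it was −0.98 and −2.40.

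TMP minus CMP called 0 of 12 member probes and 0% of all probes (limma, 35 at an unadjusted p under 0.05). The members' differences lay between −0.15 for Pcsk2 A_51_P229613 and 0.49 for the Calca CGRP probe. The difference of differences, TSP minus TMP less CSP minus CMP, called 0 of 12 and 0% of all probes (299 at an unadjusted p under 0.05). It was −1.57 (SE 0.69, unadjusted p = 0.0337, limma adjusted p = 1.00) for the calcitonin probe, −2.76 (SE 1.68, adjusted p = 1.00) for the CGRP probe and −1.82 (SE 1.17, adjusted p = 1.00) for Pcsk1 A_52_P500979. Without TSP 1 and TSP 2 it was −1.67, −1.74 and −0.80 for these probes (limma adjusted p = 1.00 for each). So the side population difference was not shown to change with surgery. These contrasts share arrays, and their values stand side by side without being counted as separate evidence.

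Most of these genes also varied widely among side population arrays. Over the 10 arrays CSP 1 to CSP 6 and TSP 3 to TSP 6, the SD of the Calca CGRP probe was 2.14 log2 units, against 0.53 over the 6 main population arrays. Of all probes, 0.0136% had an SD at least as large on those 10 arrays. The SD of Scg2 was 1.80 on the side population arrays and 0.25 on the main population arrays (0.0475% as large). Chgb had an SD of 1.58 on the side population arrays and 0.42 on the main population arrays (0.163%). Pcsk2 A_51_P229613 had 1.45 on the side and 0.38 on the main population arrays (0.315%), and Pcsk1 A_52_P500979 had 1.20 on the side and 0.26 on the main population arrays (1.2%). Of the 6 main population arrays, the CGRP probe was well above background on 5, Scg2 on 4 and Pcsk1 A_52_P500979 on 2. Chgb and Pcsk2 A_51_P229613 were above it on all 6. The part of background in the small main population SDs was not tested. The median probe had an SD of 0.45 on the side population arrays and 0.34 on the main population arrays. Pth had 0.69 on the side and 0.41 on the main population arrays (15.9%), and Casr 0.23 on the side and 0.33 on the main population arrays (92.4%). The parathyroid gene Gcm2 had an SD of 1.23 on the side population arrays (1.05%), above that of Pcsk1 A_52_P500979. The other side population SDs were those of the calcitonin probe of Calca (1.19, 1.27%), Pcsk2 A_51_P134045 (1.14, 1.63%), Pcsk1 A_52_P164524 (1.07, 2.23%) and Chga (0.98, 3.63%).

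The arrays ranked much alike across the 8 probes of Calca, Chgb, Scg2, Pcsk1 and Pcsk2. TSP 3 was the lowest of the 10 on 8 of 8 probes, and CSP 5 was among the lowest 2 on 6. CSP 4 was among the highest 4 on 8 of 8, CSP 6 on 7 and TSP 4 on 6. Chga did not follow this order, since its lowest arrays were CSP 1 and CSP 2, nor did Pth, whose lowest were CSP 1 and TSP 5. By markers of other cell types TSP 3 lay with the side population. Its 6 endothelial genes averaged 2.27 and its 5 fibroblast genes −0.20, within the ranges of the other side population arrays (0.93 to 3.15 and −2.20 to 1.04) and above TMP (−1.83 to −1.28 and −4.52 to −3.43).

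**Figure D5:**
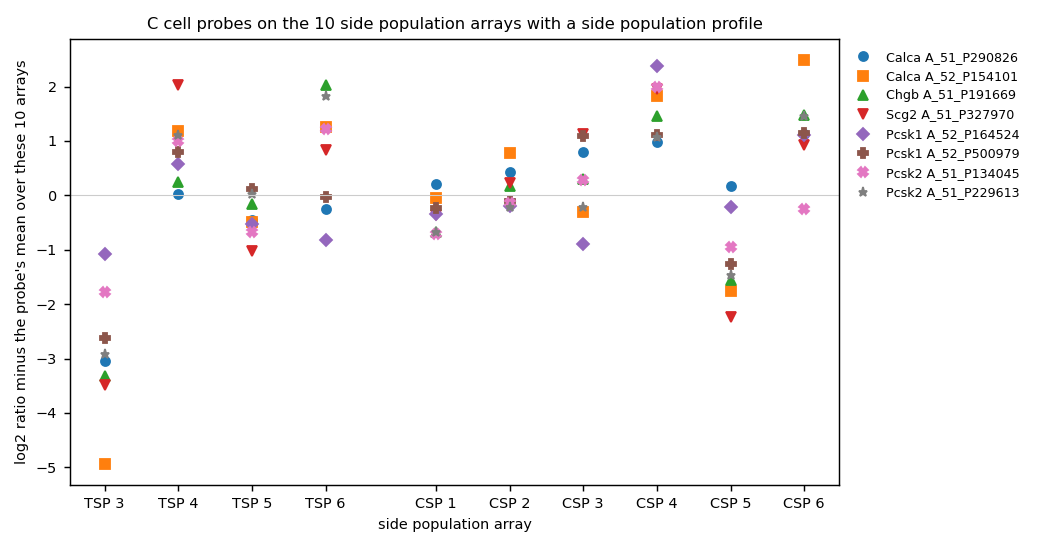
Log2 ratio less the probe's mean over 10 side population arrays (y axis), by array (x axis, TSP 3 to TSP 6, then CSP 1 to CSP 6), for the 8 probes of Calca, Chgb, Scg2, Pcsk1 and Pcsk2, each with its own symbol. TSP 3 is the lowest array on all 8 probes, and CSP 4 is among the highest 4 on each.

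Genes that C cells and other endocrine cells use were also counted as lists. Beside the list counts, CSP minus CMP called 6.59% of all probes higher and 6.64% lower. Of 19 tested C cell and calcitonin family genes, 1 rose in CSP against CMP, Nts (neurotensin, a gut and brain peptide; 3.55, limma adjusted p = 0.00747, 11.7-fold), and none fell. The median of that list was 0.04, equal to the 0.04 over all probes. Without TSP 1 and TSP 2, TSP minus TMP called Nts higher as well (2.30, adjusted p = 0.00124), with Gfra4, the persephin receptor that C cells carry (1.82, adjusted p = 0.0411), and called Isl1 lower (−2.57, adjusted p = 0.0209). Of 20 tested genes of prohormone processing and granules, 1 rose and 3 fell in CSP, with a list median of 0.21. Cpe, the carboxypeptidase that trims the peptides the convertases release, rose by 3.60 (adjusted p = 0.00918, 12.1-fold) and was −0.77 on TSP 3, within the CSP range of −2.35 to −0.38. Those that fell were Nucb2 (−1.93), the secretory GTPase Rab3d (−1.96) and Sytl4 (−0.85). Of 19 exocytosis and neuronal genes, the vesicle gene Syp (0.72) and the fusion protein gene Stx1a (1.20) rose and none fell. The median of these 19 was 0.23. All list medians and counts use genes written down with earlier results of these data known.

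Among the 5 lists of endocrine genes, the one of receptors and their peptides had the largest share called. Of 8 tested, 4 rose in CSP and none fell, and the median was 1.18. Calcrl, the CGRP and adrenomedullin receptor, had a log2 ratio of −0.17 ± 0.69 in CSP (SD, n = 6) and −5.05 ± 0.06 in CMP (SD, n = 3), a difference of 4.87 (limma adjusted p = 0.00918, 29.3-fold). Its partners Ramp2 (2.65) and Ramp3 (2.21) and the peptide gene Pthlh (1.52) rose too, and all 4 were also called in TSP minus TMP without TSP 1 and TSP 2. Endothelial markers moved with them: 6 of 6 rose in CSP, and their mean log2 ratio was 0.93 to 3.15 on CSP arrays and −1.81 to −1.31 on CMP arrays. Of 5 fibroblast markers 3 rose, with means of −2.20 to 0.90 on CSP arrays and −4.33 to −3.69 on CMP arrays. Of 10 follicular markers 7 fell, with means of 0.12 to 1.86 on CSP arrays and 2.52 to 3.12 on CMP arrays. The part of these cell types in the results for the C cell genes was not tested. Schwann markers called 0 of 5, and among 5 leukocyte and 4 thymic epithelial markers Cd68 (−1.19) and Foxn1 (−1.84) fell. In the parathyroid list 2 of 14 tested genes rose in CSP, with Gna11, a G protein subunit gene, among them (0.94, limma adjusted p = 0.0178), and no gene fell. The median of that list was 0.14.

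The genes of most similar pattern were ranked by Pearson's r over the log2 ratios of all 18 arrays, as a description in which the arrays share the split between side and main population. For Chgb they were Scg3, another granin (r = 0.99), Pnoc, the nociceptin precursor (0.98), and Scrn1 (0.96). The same 3 genes came out for Pcsk2, with Pnoc at 0.99, Scg3 at 0.98 and Scrn1 at 0.95. For Scg2 they were Gfra4 (0.94), Pcolce2 and Pnoc (0.93 each). For Pcsk1 they were Rspo1 (0.96), LOC676546 (0.95) and Mark1 (0.94). The calcitonin probe of Calca had 9130004C02Rik (0.87), Usp31 (0.84) and Slc7a6os (0.83), Chga had Ascl2 (0.88), Olfr1030 and Fam161b (0.84 each), and Pth had E230016M11Rik (0.87), Ptpla (0.83) and Nup188 (0.79). Gcm2 had Abcb10 (0.89), Arhgef6 and a clone without a gene symbol (0.87 each), and Casr had Slc35a1 (0.87), Rbak (0.86) and Zfp2 (0.83). Scg3 itself had a CSP minus CMP difference of 2.29 (limma adjusted p = 0.0905), which did not pass, and Gfra4 1.67 (adjusted p = 0.0776).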

How the data were processed

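Gene expression was read on 18 Agilent 2-colour whole mouse genome arrays with 41174 probes of 60 bases, Cy5 for the sample and Cy3 for the common pool, without a dye swap. The deposited scanner files give raw and processed intensity per channel and spot; per the file headers they came from Agilent Feature Extraction 9.5.1.1, while the submitters' processing notes name 8.5.1.1. Per the file headers, the log10 ratio in these files is processed red over processed green. The series table holds log2 ratios by the authors, whose normalization is not given in the sources used here; they served as an alternative only.

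Raw mean signals were corrected with normexp (offset 50) and normalized by loess within arrays in limma 3.58.1 (R 4.3.3; package data.table, version 1.17.8), with control spots at weight 0. Spots marked as outliers by the scanner software were left out, and spots of one probe were averaged. Each of the 29759 probes that exceeded background clearly in Cy5 on 3 or more arrays was tested by itself. A limma model of 4 group means gave TSP minus TMP, CSP minus CMP, TSP minus CSP, TMP minus CMP and the difference of differences, with Benjamini-Hochberg adjustment over all kept probes within a contrast and calls at adjusted p under 0.05. The fit was tested on simulated data. Depth on an array means signal over background; the share of spots above it is given in the text.

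The replicate numbers were checked for pairing, and the deviations of same-numbered TMP and CMP arrays correlated at 0.66, 0.72 and 0.80. Each such pair also shared a slide, so a pairing of the samples cannot be told apart from the slide. The replicate block gave 0 calls in TMP minus CMP, as did the fit without it.

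All members and all their probes are named. From each gene list, up to 4 called genes of largest moderated t in CSP minus CMP are named, except 1 of the parathyroid list, whose result is not reported here, and the endothelial, fibroblast and follicular markers, given as counts and means; Gfra4, Isl1 and Scg3 were named after their values were seen. The 3 genes of most similar pattern are those of highest Pearson r among probes with one gene name, for members above background on at least 9 arrays. Members and lists were chosen with earlier results of these data known. Probe positions were taken from the file headers as they stand, symbols were checked through RefSeq accessions (22951 probes matched), and promoter windows are RefSeq's. Figures were drawn with Python 3.11.15 and matplotlib 3.10.9. The alternatives were another filter or none, the scanner's log ratios, median centring, scaling between arrays, one probe per gene, outlier spots kept, slide or replicate number as a block, array weights, the deposited ratios, arrays left out, and Cy5 alone.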

Additional observations from a re-analysis of the deposited data

Results flagged for a closer look

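For the calcitonin probe of Calca (A_51_P290826), TSP 3 had a log2 ratio of 1.50, and the nearest other TSP array had 3.64. That gap is 0.697 of the range of the 6 TSP arrays, above Dixon's critical value for 6 samples. TSP 3 was also the lowest of the 10 side population arrays on the other 7 probes of Calca, Chgb, Scg2, Pcsk1 and Pcsk2.

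For Casr, CSP 3 had a log2 ratio of 0.81, and the nearest other CSP array had 0.32, a gap of 0.703 of the range of the 6 CSP arrays. Of the 24 sets of 6 arrays examined this way, 2 passed the critical value, and chance passes about 1 in 20.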

How the results depend on the processing

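In CSP minus CMP, 4 member probes were called, all higher, against 6.59% of all probes called higher. Here each count is followed by that share, except for single arrays left out, where calls over all probes in either direction are given. The count was 2 without a filter (4.03%, 13 probes tested), 2 with one probe per gene (7.67%, 9 tested), 2 with the authors' deposited log2 ratios (5.26%, 10 tested), 1 with the scanner's log ratios (4.87%), 0 with scaling between arrays (0.934%), 7 with slide as a random block (12.4%) and 8 with array weights (14.4%). It was 3 with the stricter filter (8.21%), 3 with median centring (3.6%), 6 with slide as a fixed block (14.5%) and 4 with outlier spots kept (6.59%). Leaving out 1 array at a time gave 0 to 5: 0 without CMP 2, 1 without CMP 1 or CMP 3, and 5 without TSP 3 or TSP 6. Over all probes, calls in either direction were 0 without CMP 2, 922 without CMP 1 and 2579 without CMP 3. They were 4168 without TSP 3 and 3911 without TSP 6, against 3937 with all arrays. One probe per gene fits fewer member probes and leaving out an array fits fewer samples; for the other alternatives the cause was not tested. With the replicate block the count was 2 (4.16%), with Scg2 (adjusted p = 0.0973) and Pcsk2 A_51_P134045 (0.0889) lost in limma. Same-numbered CSP and CMP arrays had deviations that correlated at r = 0.12, −0.23 and −0.26. For same-numbered TSP and CSP arrays r ran from −0.02 to 0.47. So few arrays cannot settle whether same-numbered samples were paired, and the labels do not say.

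Of all calls in CSP minus CMP, 49.8% were higher, against 31.4% with median centring and 38.8% with scaling between arrays. Median centring moved the median of all probes in TSP minus CSP to 0.22 and in the difference of differences to 0.17.

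TSP minus TMP had 0 member probes called, and 1 without TSP 1 and TSP 2, both on the ratio and in Cy5 alone. The Cy5 analyses were chosen after seeing the data. TSP minus CSP, TMP minus CMP and the difference of differences had 0 under every alternative run. No called member probe changed sign under any alternative run, but the size of the differences depended strongly on the setting. Over settings run on the ratio, the log2 difference was 3.10 to 5.77 for the Calca CGRP probe and 2.93 to 6.01 for Pcsk1 A_52_P500979. It was 2.19 to 3.70 for Scg2 and 1.37 to 2.92 for Pcsk2 A_51_P134045. What the arrays can show is limited for Casr, Gcm2 and Pcsk1 A_52_P164524, which were above background on 9, 14 and 6 of 18 arrays.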
